A study of Mus musculus with 18 samples.

Results

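The comparison described here followed immortalized brown preadipocytes that received vehicle and no growth factor, from 8 h to 24 h after the addition. It was made of all 6 libraries labelled as vehicle at 8 h or 24 h, out of 18 libraries in the series, with 3 replicates in each group. The cells are a single murine line, of the source labelled Brown preadipocytes, made immortal with SV40 T antigen and grown in high-glucose medium with fetal bovine serum. The other libraries came from vehicle cells at 4 h and from cells given FGF6, a paracrine fibroblast growth factor, at 4, 8 and 24 h. Every gene counted in the table was considered, and 15071 of 48023 genes had enough reads to be tested. Nothing in the labels says that replicates were separate cultures on separate days, so p-values measure the spread between these libraries, which may be technical. The labels do not give the vehicle's composition, and time in culture cannot be told apart from anything else that changed between both harvests.

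Brown preadipocytes are the stromal precursors of the heat-producing brown adipocyte. They proliferate in culture and take on lipid storage and thermogenic genes when they differentiate. Cultured fibroblast-like cells also keep a circadian clock, which serum can reset, and they balance sterol uptake from serum lipoproteins against their own synthesis.

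The labelled identity was first compared with its markers. Of 22 preadipocyte and stromal genes, 13 stood at a mean of 2 CPM (counts scaled to each library's total) or more over the 6 libraries. Platelet-derived growth factor receptors had means of 288 CPM for Pdgfra and 652 CPM for Pdgfrb, the mesenchymal factor Prrx1 had 518 CPM and the progenitor surface marker Ly6a had 247 CPM. The preadipocyte marker Dlk1 had no read in any of the 6 libraries, and neither had Dpp4, Meox2 and Tcf21 of the same list. Wnt2 had 1 to 3 reads per library and Pi16 had 4 to 14. Ucp1, the uncoupling protein of brown fat, had 0 reads in all 6 vehicle libraries, which allows a level of up to 0.0905 to 0.126 CPM (3 counts in a library; counting error only). Most defining genes of other cells had few reads, with exceptions among myogenic, mural, endothelial and myeloid markers. The leukocyte gene Ptprc and the macrophage gene Adgre1 had 0 to 2 reads per library, the endothelial gene Cdh5 had 0 to 3, and all 7 epithelial markers had 10 reads or fewer in every library. The myogenic factors Myf5 and Myf6 had no read, Pax7 had 1 at most, Myod1 and Myog had means of 2.18 and 3.74 CPM, and the dermomyotomal factor Pax3 had a mean of 37.7 CPM. The mural marker Notch3 had a mean of 82.2 CPM and Cspg4 of 27.0 CPM, and the myeloid genes Cd68 and Cd14 had 7.07 and 6.95 CPM. Of the endothelial markers, Egfl7 had 177 to 275 reads per library (mean 7.78 CPM), Vwf 15 to 45 and Kdr 7 to 33, and Kdr rose (log2 fold change 1.16, adjusted p = 0.0141). Summed endothelial markers held 8.02 to 10.5 CPM at 8 h and 8.75 to 10.5 CPM at 24 h. Summed macrophage markers lay at 16.7 to 20.1 CPM at 8 h, then at 14.8 to 15.9 CPM at 24 h, and summed mature adipocyte markers from 96.4 to 99.4 CPM and from 156 to 178 CPM, nearly all of it Fabp4. The part of other cells in the results was not tested.

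The libraries held 27935230 to 30282133 counts at 8 h and 24471817 to 33471980 counts at 24 h. Ribosomal RNA genes took 0.101% to 0.166% of the counts in 17 libraries and 1.96% in the third vehicle library at 24 h. That library also carried 56.04 CPM of Rpph1, the RNA of ribonuclease P, where the other 5 vehicle libraries had 0.137 to 0.392 CPM. CT010467.1, whose counts were high in the same library, stood at 10580 CPM there against 141 and 148 CPM in the other vehicle libraries at 24 h. Lars2, the gene of a mitochondrial leucyl-tRNA synthetase, stood at 2445 CPM against 197 and 208 CPM. Results below are therefore given with that library and, where it mattered, without it. Of genes at a mean of 2 CPM or more, 12 changed their log2 fold change by over 0.5 when it was left out, namely CT010467.1, Gm15564, Gm23935, Gm24601, Gm26917, Gm37194, Lars2, Mir6236, Rpph1, mt-Rnr1, mt-Rnr2 and n-R5-8s1, which were singled out after their values were seen.

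**Figure D1:**
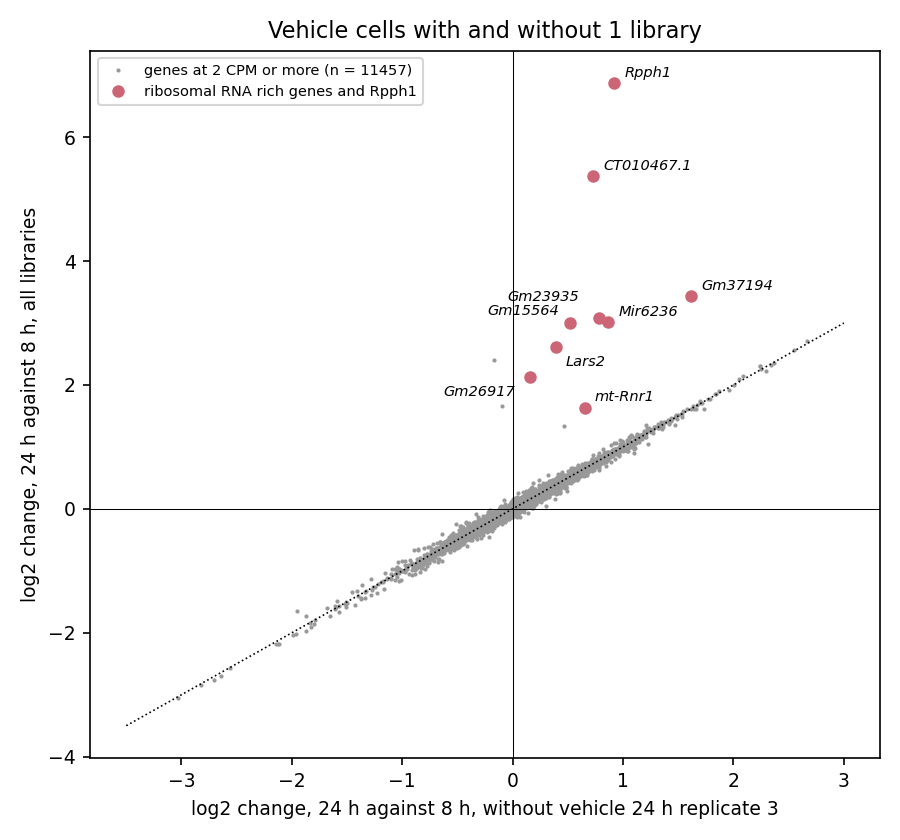
Log2 change from 8 h to 24 h in vehicle cells for 11457 genes at a mean of 2 CPM or more, fitted with all libraries (vertical axis) and without the third vehicle library at 24 h (horizontal axis), with a dotted line of equal values and red points for genes rich in ribosomal RNA reads and for Rpph1. Nearly all genes lie on the line, and Rpph1 stands at 6.88 with the library and 0.92 without it.

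Between 8 h and 24 h, 3839 of 15071 genes rose (25.5% of those tested) and 3575 fell (23.7%) at an adjusted p under 0.05 in the edgeR quasi-likelihood fit, adjusted by Benjamini-Hochberg over every gene tested. Most of these changes were small: the median absolute log2 fold change of the called genes was 0.31. At least 2-fold increases were called for 379 genes (2.51%) and at least 2-fold decreases for 296 genes (1.96%), which became 232 and 129 once every library had to hold 10 counts or more. Without the library rich in ribosomal RNA, 3559 genes rose (23.1% of 15385 tested) and 3328 fell (21.6%), and 6605 of the 7414 genes first called were called again in the same direction. Of the genes with at least 2-fold change, 312 of 379 and 233 of 296 passed both limits again. With no scaling beyond library size the split was 2844 higher and 4976 lower, so small changes are relative to the scaling used.

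The 10 largest decreases among genes at 2 CPM or more included several genes of secreted proteins. Mgp, the matrix Gla protein that inhibits calcification (GRCm38 chr6:136872435-136875823, minus strand), read 424, 456 and 443 CPM at 8 h and 57.8, 50.1 and 52.2 CPM at 24 h (log2 fold change -3.05 ± 0.07 SE, adjusted p = 5.23e-21). Every 24 h library lay far below every 8 h library. Kng1, the kininogen precursor of bradykinin, read 12.3, 14.6 and 13.6 CPM at 8 h and 2.07, 1.75 and 1.85 CPM at 24 h (log2 fold change -2.84 ± 0.12 SE, adjusted p = 1.80e-15). C4b, complement component 4, read 57.5, 59.5 and 63.8 CPM at 8 h and 9.77, 8.71 and 8.07 CPM at 24 h (log2 fold change -2.76 ± 0.10 SE, adjusted p = 1.05e-16). Igfbp3, which binds insulin-like growth factors in the medium, read 12.5, 14.6 and 14.3 CPM at 8 h and 1.997, 2.38 and 1.93 CPM at 24 h (log2 fold change -2.70 ± 0.13 SE, adjusted p = 1.01e-14). The other genes of this set were the acute phase haptoglobin gene Hp (-2.18), the GDNF family receptor Ret (-2.18), the membrane protease Tmprss6 (-2.17), the serpin Serpina3n (-2.03), the cytokine receptor chain Csf2rb (-2.03) and C430002N11Rik (-2.57). All 10 were again the 10 largest decreases without the doubted library. That their 8 h and 24 h libraries did not overlap was a condition of choosing them.

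Of the 10 largest increases, 7 were Rpph1, CT010467.1, Gm37194, Gm23935, Mir6236, Gm15564 and Lars2, with fitted values of 2.62 to 6.88 that fell to between 0.39 and 1.62 without 1 library. Treml1, Aspn and Adh1 were the others. Ranked again without that library, a choice made after seeing the data, the 10 largest increases were Treml1, Aspn, Adh1, Dbp, Atp2a3, Aldh1a7, Reps2, Fbxo32, Dkk2 and Anks1b. Aspn, the small leucine-rich matrix protein asporin, read 6.79, 5.05 and 5.92 CPM at 8 h and 34.6, 34.6 and 36.03 CPM at 24 h (log2 fold change 2.56 ± 0.10 SE, adjusted p = 1.63e-16). Aldh1a7, an aldehyde dehydrogenase, read 5.27, 3.05 and 3.697 CPM at 8 h and 20.5, 17.8 and 19.4 CPM at 24 h (log2 fold change 2.26 ± 0.14 SE, adjusted p = 3.06e-12). Adh1, an alcohol dehydrogenase that also oxidizes retinol, read 1.33, 1.11 and 1.13 CPM at 8 h and 5.5, 6.75 and 6.096 CPM at 24 h (log2 fold change 2.36 ± 0.19 SE, adjusted p = 1.70e-10). Treml1, a receptor best known from platelets, was low throughout at 0.568, 0.5403 and 0.822 CPM at 8 h and 3.64, 4.52 and 4.499 CPM at 24 h (log2 fold change 2.71 ± 0.24 SE, adjusted p = 9.92e-10). Dkk2, a secreted WNT antagonist, read 2.24, 1.94 and 2.46 CPM at 8 h and 8.898, 9.86 and 10.5 CPM at 24 h (log2 fold change 2.14 ± 0.11 SE, adjusted p = 5.98e-14). The fitted values of the calcium pump gene Atp2a3, Reps2 and Anks1b were 2.23, 2.30 and 2.09. In each of these genes all 24 h libraries lay above all 8 h libraries. Separation of the ranked libraries was a condition of choosing them.

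The circadian clock of mammalian cells is a loop in which CLOCK and its partner BMAL1 (encoded by Arntl) switch on their own repressors, the PER and CRY proteins, and the nuclear receptors of the REV-ERB family, which in turn hold Arntl down. DBP, TEF and HLF are output activators that bind D-boxes, and NFIL3 is the repressor that competes for the same sites. All 19 listed clock genes were tested, and 13 rose and 4 fell. Their median log2 fold change was 0.78, where the median of all genes tested was 0.00.

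The output activators moved farthest. Dbp (chr7:45705088-45710203, plus strand) read 5.33, 4.8 and 4.76 CPM at 8 h and 25.9, 24.5 and 23.9 CPM at 24 h (log2 fold change 2.32 ± 0.11 SE, adjusted p = 9.26e-15), and 539 of its 2993 exonic bases overlap the antisense gene Sphk2. Tef read 47.4, 50.5 and 53.2 CPM at 8 h and 138, 151 and 146 CPM at 24 h (log2 fold change 1.53 ± 0.05 SE, adjusted p = 2.49e-18). Hlf, below 1 CPM in every library, had a log2 fold change of 0.84 and did not pass (adjusted p = 0.0932). The opposing repressor Nfil3 fell and read 62.6, 61.1 and 58.4 CPM at 8 h and 41.2, 41.6 and 36.2 CPM at 24 h (log2 fold change -0.61 ± 0.06 SE, adjusted p = 3.20e-09). The REV-ERB genes rose together: Nr1d2 read 18.2, 19.7 and 20.3 CPM at 8 h and 54.4, 52.7 and 55.8 CPM at 24 h (log2 fold change 1.49 ± 0.05 SE, adjusted p = 4.19e-17) and Nr1d1 read 10.1, 9.25 and 9.003 CPM at 8 h and 22.03, 19.6 and 21.5 CPM at 24 h (log2 fold change 1.15 ± 0.07 SE, adjusted p = 4.61e-13). Nr1d1 shares 263 of its 3077 exonic bases with the antisense gene Thra, and these reads may not be separable. On the activator side, Arntl fell and read 31.7, 26.7 and 31.1 CPM at 8 h and 18.3, 16.2 and 16.1 CPM at 24 h (log2 fold change -0.82 ± 0.07 SE, adjusted p = 1.61e-10).

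Clock, the partner of the Arntl product, fell less, from 118 to 119 CPM at 8 h to 98.4 to 101 CPM at 24 h (log2 fold change -0.25, adjusted p = 1.22e-06). Npas2, a stand-in for Clock, fell and lay at 0.604 to 1.17 CPM at 8 h and 0.252 to 0.455 CPM at 24 h (log2 fold change -1.40, adjusted p = 0.0146), and it lost its call without the third vehicle library at 24 h (-1.25, adjusted p = 0.0524). Among the PER and CRY genes, Per3 rose most (13.1, 12.6 and 15.03 CPM at 8 h and 30.8, 28.7 and 28.5 CPM at 24 h, log2 fold change 1.11, adjusted p = 8.90e-11). Per2 rose by 0.78, Per1 by 0.50, Cry2 by 0.55 and Cry1 by 0.26 on the log2 scale, with adjusted p from 9.06e-08 to 0.000258. The clock-controlled repressor Ciart read 2.84, 3.46 and 3.15 CPM at 8 h and 7.64, 8.47 and 7.02 CPM at 24 h (log2 fold change 1.30, adjusted p = 4.88e-10). Bhlhe40 and Bhlhe41, which compete with CLOCK at E-boxes, rose by 0.94 and 1.05. The nuclear receptor Rora rose by 0.74. Summed over the list, the vehicle libraries held 477 to 488 CPM at 8 h and 713 to 726 CPM at 24 h.

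**Figure D2:**
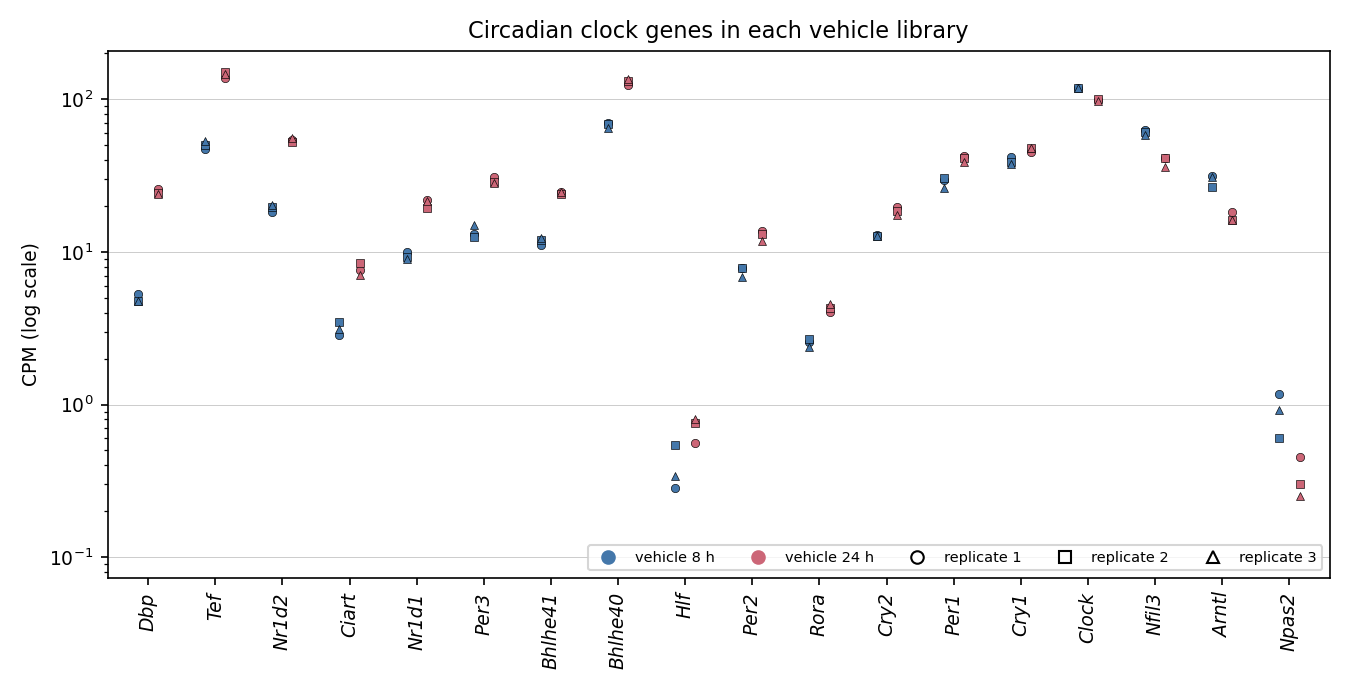
Level of 18 of the 19 tested circadian clock genes in CPM (log axis) in the 3 vehicle libraries at 8 h (blue) and the 3 at 24 h (red), 1 point per library with the replicate given by its shape, genes ordered by fitted change. Dbp, Tef and Nr1d2 at the left stand well apart between the times, and Arntl and Npas2 at the right are lower at 24 h.

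RefSeq promoter windows, 300 bases each with 250 before the start and 50 after it (GRCm38.p6), were found for 16 of the 19 genes. The E-box CACGTG, the site of the CLOCK partner complex, was present in 5 of them (Bhlhe41, Ciart, Cry1, Per1 and Tef), all of which rose, and in 11.6% of the windows of all tested genes. The D-box TTATGTAA was present in 1, Per3, and in 0.618% of all. Both strands were searched, a match is a description of letters and not a site shown to be bound, and genes can have further elements outside these windows. The windows of Tef, Ciart and Per3 are shown because they hold the matches in genes with some of the larger changes, with E-boxes (Tef at chr15:81802423-81802722, plus strand, and Ciart at chr3:95882179-95882478, minus strand) and D-boxes (Per3 at chr4:151044616-151044915, minus strand) in capitals. Ciart holds 3 E-boxes, which begin 116, 58 and 44 bases before the start, and Per3 holds 2 D-boxes, which begin 205 and 158 bases before it.
Tef: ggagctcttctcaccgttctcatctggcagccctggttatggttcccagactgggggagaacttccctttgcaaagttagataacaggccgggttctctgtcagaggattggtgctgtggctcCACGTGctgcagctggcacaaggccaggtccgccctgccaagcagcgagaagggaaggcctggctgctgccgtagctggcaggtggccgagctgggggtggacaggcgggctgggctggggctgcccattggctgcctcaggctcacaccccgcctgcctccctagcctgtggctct
Ciart: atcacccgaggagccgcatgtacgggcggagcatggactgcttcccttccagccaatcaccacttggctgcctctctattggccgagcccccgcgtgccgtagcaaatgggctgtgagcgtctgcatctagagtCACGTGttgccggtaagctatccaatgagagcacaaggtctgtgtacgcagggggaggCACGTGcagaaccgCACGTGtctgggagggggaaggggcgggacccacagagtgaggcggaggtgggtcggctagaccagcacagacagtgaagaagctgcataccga
Per3: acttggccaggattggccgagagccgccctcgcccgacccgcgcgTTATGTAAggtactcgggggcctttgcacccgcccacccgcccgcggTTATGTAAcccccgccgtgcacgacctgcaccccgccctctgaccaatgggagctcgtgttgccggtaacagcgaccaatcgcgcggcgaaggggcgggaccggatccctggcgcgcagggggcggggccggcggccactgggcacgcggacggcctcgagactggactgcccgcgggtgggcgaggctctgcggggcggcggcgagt

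Sterol synthesis genes rose throughout their list. Cells make cholesterol from acetyl-CoA by the mevalonate pathway and take it up from lipoproteins. Both are switched on by SREBP2 (encoded by Srebf2) when membrane sterol falls, and INSIG1 holds that factor in the endoplasmic reticulum. All 25 listed genes of cholesterol synthesis and uptake were tested and all 25 rose, 17 of them at least 2-fold, with a median log2 fold change of 1.12. All 25 also rose without the third vehicle library at 24 h (median 1.11). Their summed level was 3310 to 3620 CPM at 8 h and 7150 to 7680 CPM at 24 h.

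Along the pathway, Hmgcs1, which makes HMG-CoA (chr13:119690379-119708260, plus strand, with 557 of 4594 exonic bases over an antisense gene), read 303, 285 and 296 CPM at 8 h and 742, 822 and 835 CPM at 24 h (log2 fold change 1.44 ± 0.05 SE, adjusted p = 4.48e-17). Mvd, which decarboxylates mevalonate diphosphate, read 80.05, 66.2 and 59.5 CPM at 8 h and 226, 247 and 234 CPM at 24 h (log2 fold change 1.78 ± 0.09 SE, adjusted p = 3.68e-14). Sqle, the squalene epoxidase, read 264, 240 and 249 CPM at 8 h and 535, 559 and 564 CPM at 24 h (log2 fold change 1.14 ± 0.04 SE, adjusted p = 1.62e-16). Msmo1, which removes methyl groups from the sterol ring, read 256, 214 and 226 CPM at 8 h and 630, 660 and 692 CPM at 24 h (log2 fold change 1.51 ± 0.06 SE, adjusted p = 1.22e-16). Insig1, itself a target of the factor it restrains, read 110, 103 and 99.99 CPM at 8 h and 328, 350 and 347 CPM at 24 h (log2 fold change 1.71 ± 0.06 SE, adjusted p = 2.09e-17), and Srebf2 rose less, by 0.60 ± 0.04 (SE). For each of these genes, named for large changes or as pathway steps, the lowest 24 h library lay above the highest 8 h library. The share of all genes so separated is not given here. The smallest change on the list was 0.14.

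**Figure D3:**
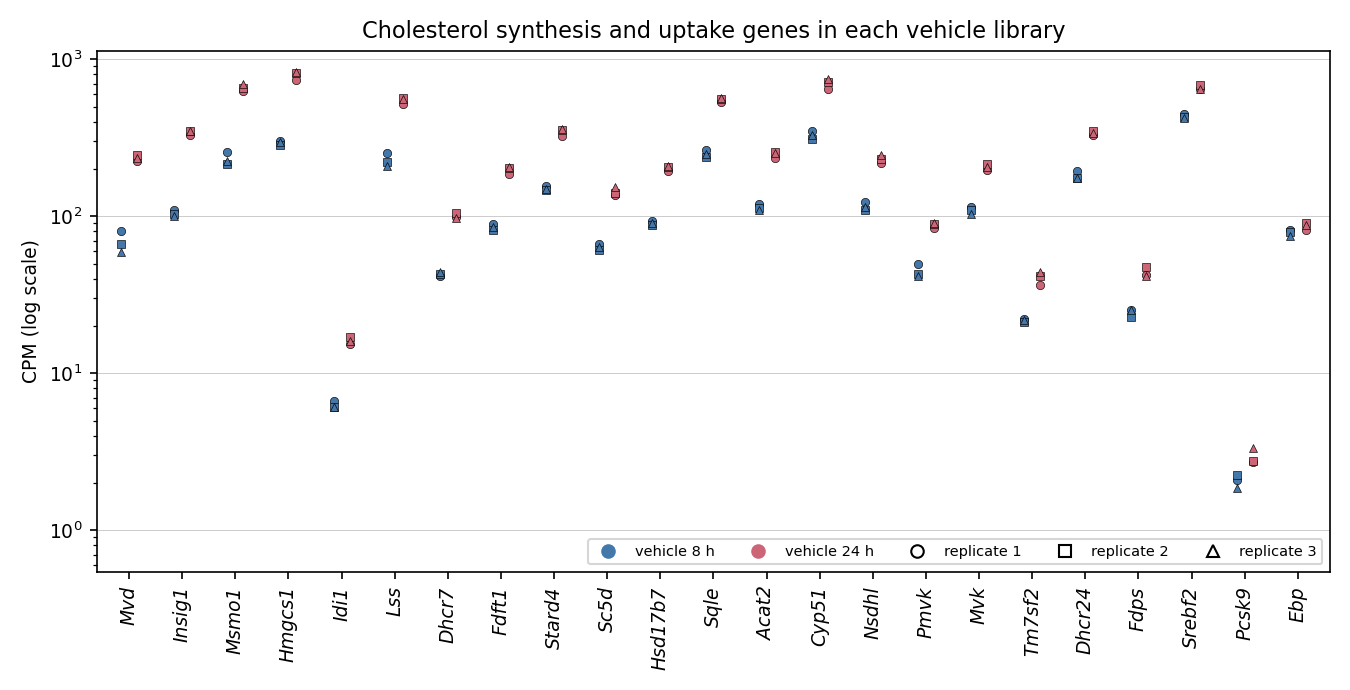
Level of 23 of the 25 cholesterol synthesis and uptake genes in CPM (log axis) in the 6 vehicle libraries, drawn as in the plot of the clock genes. Red points of 24 h lie above the blue points of 8 h in every gene at the left and centre, with 15 of the genes shown at least 2-fold higher.

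Promoter windows were found for 17 of the 25 genes. The sterol regulatory element TCACCCCAC was present in 1 of them, Hmgcs1, and in 0.683% of all windows of tested genes. The CCAAT box, bound by NF-Y and frequent in promoters of this pathway, was present in 16 of the 17 windows and in 42.8% of all. The Hmgcs1 window (chr13:119690101-119690400, plus strand) is shown with its sterol regulatory element, which begins 137 bases before the start, in capitals.
Hmgcs1: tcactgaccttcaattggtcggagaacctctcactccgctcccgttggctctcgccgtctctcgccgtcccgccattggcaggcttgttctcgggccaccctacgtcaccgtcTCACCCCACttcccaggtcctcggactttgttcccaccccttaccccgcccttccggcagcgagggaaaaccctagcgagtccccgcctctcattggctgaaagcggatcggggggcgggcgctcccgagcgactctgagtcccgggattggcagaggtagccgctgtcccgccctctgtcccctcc

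Fatty acid synthesis, which SREBP1 controls, rose as well: 17 of 19 tested genes were higher and 1 lower (median 0.74). Scd2, a stearoyl-CoA desaturase, read 1302, 1168 and 1157 CPM at 8 h and 2719, 2946 and 3047 CPM at 24 h (log2 fold change 1.26, adjusted p = 1.01e-16). Fasn, the fatty acid synthase, read 494, 445 and 420 CPM at 8 h and 869, 894 and 853 CPM at 24 h (log2 fold change 0.94, adjusted p = 2.05e-13), and Acaca, which makes its malonyl-CoA, rose by 0.22. Acss2, which activates acetate, rose by 1.28, the acyl-CoA ligase Acsl3 by 1.46, and the phosphatidate phosphatase Lpin1 by 1.46. Genes of sterol export moved less. Of 10 tested LXR and export genes 6 rose and none fell at the threshold (median 0.24), among them Abcg1 (0.48) and Lpcat3 (0.55). Abca1, the main cholesterol exporter, read 15.4 to 16.5 CPM at 8 h and 14.5 to 16.7 CPM at 24 h and did not pass (log2 fold change -0.07, adjusted p = 0.563).

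Hypoxia targets and glycolysis genes rose in part. Of 20 hypoxia targets, 16 were higher and 2 lower (median 0.39). Car9, a carbonic anhydrase that acidifies the medium, read 2.49, 1.46 and 1.92 CPM at 8 h and 8.23, 7.06 and 7.02 CPM at 24 h (log2 fold change 1.92 ± 0.17 SE, adjusted p = 7.32e-10), and Ndrg1 read 29.99, 27.1 and 25.7 CPM at 8 h and 97.03, 105 and 109 CPM at 24 h (log2 fold change 1.91 ± 0.05 SE, adjusted p = 3.53e-19). Egln3, the oxygen-sensing prolyl hydroxylase, rose by 0.97. Vegfa, the vascular growth factor, fell and lay at 224 to 240 CPM at 8 h and 195 to 217 CPM at 24 h (log2 fold change -0.18, adjusted p = 0.000711). Of 21 glycolysis genes, 15 rose and none fell (median 0.28), for example Pfkfb4 (0.56), hexokinases Hk2 (0.47) and Hk1 (0.44), and Ldha (0.23). The glucose transporter Slc2a1 was not called (log2 fold change 0.05, adjusted p = 0.279).

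Of 24 targets of FoxO factors and glucose, 14 rose and 5 fell (median 0.30). Fbxo32, the ubiquitin ligase atrogin-1 that FoxO factors induce when insulin signalling is low, read 4.798, 4.005 and 4.52 CPM at 8 h and 19.6, 22.3 and 24.3 CPM at 24 h (log2 fold change 2.31 ± 0.11 SE, adjusted p = 1.85e-14). Pik3ip1, an inhibitor of PI3 kinase, read 9.15, 8.96 and 10.2 CPM at 8 h and 21.96, 25.7 and 25.3 CPM at 24 h (log2 fold change 1.37, adjusted p = 3.34e-12), and Ccng2, a cyclin of resting cells, read 32.8, 33.2 and 35.98 CPM at 8 h and 80.01, 82.3 and 82.7 CPM at 24 h (log2 fold change 1.27, adjusted p = 3.48e-14). Foxo1 itself fell (log2 fold change -0.46, adjusted p = 6.73e-07). Txnip, which glucose induces, was not called and its libraries overlapped (log2 fold change 0.09, adjusted p = 0.291). Arrdc4, of the same list and named after its value was seen, fell (log2 fold change -0.59, adjusted p = 1.1e-05). Ddit4, an inhibitor of mTORC1 that hypoxia, ATF4 and glucocorticoids all induce, read 54.8, 48.6 and 43.6 CPM at 8 h and 122, 123 and 116 CPM at 24 h (log2 fold change 1.30, adjusted p = 8.18e-15).

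**Figure D4:**
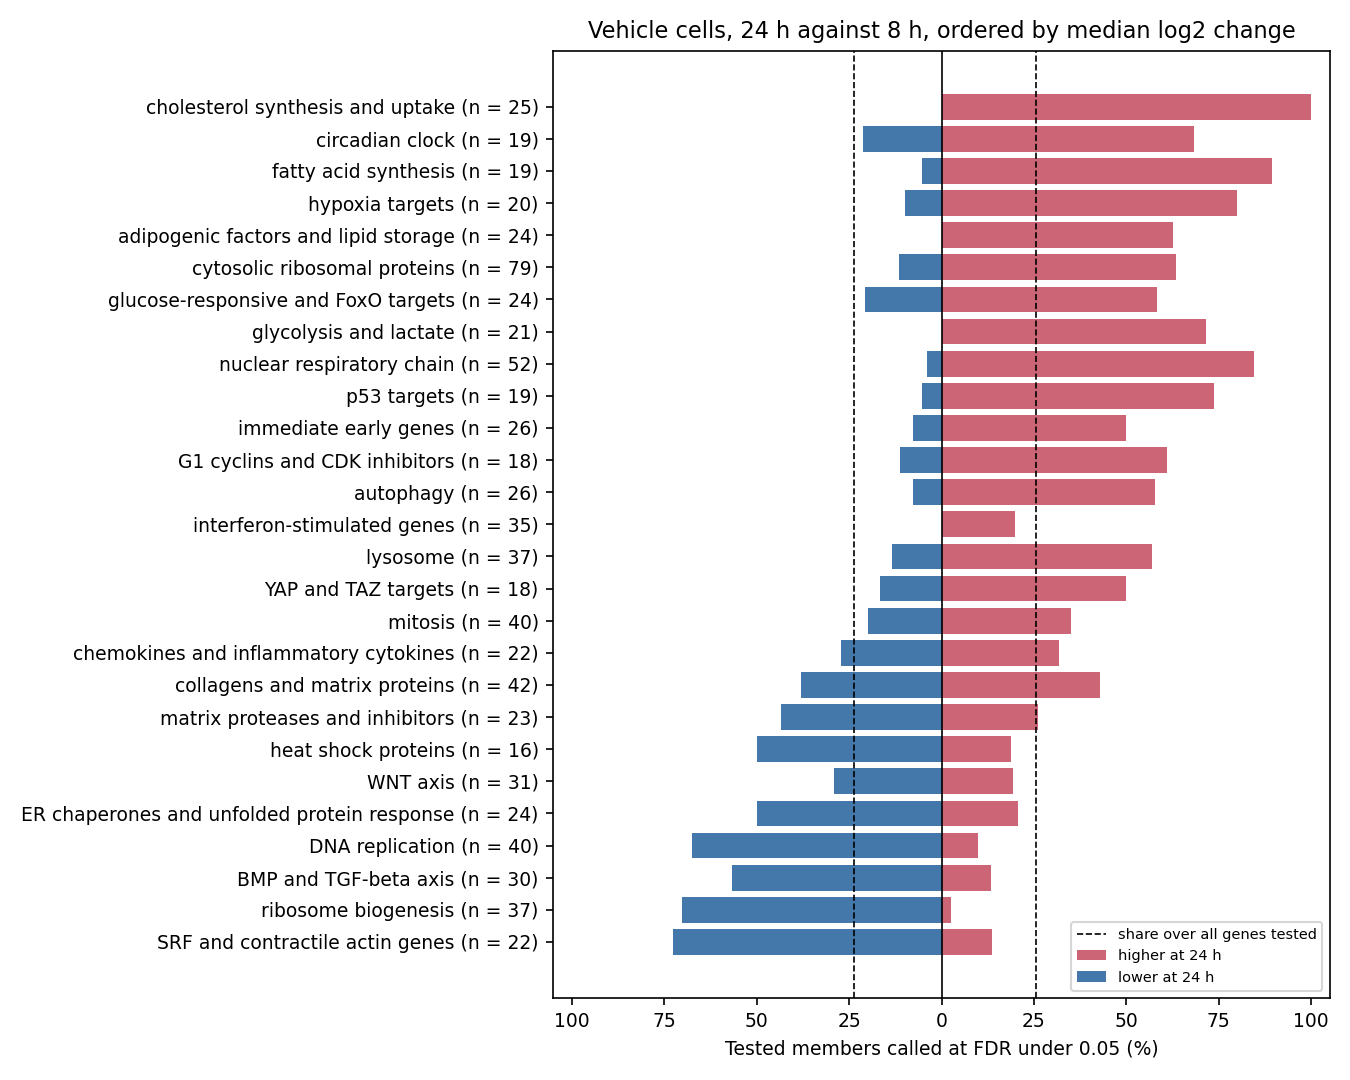
Share of tested members called higher (red, to the right) and lower (blue, to the left) at 24 h in 27 gene lists, in percent, ordered by the list's median log2 change, with dashed lines at the shares over all genes tested (25.5% higher and 23.7% lower). Cholesterol synthesis reaches 100% on the higher side, and DNA replication, ribosome biogenesis and contractile actin genes lie mostly on the lower side.

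Genes of DNA synthesis mostly fell, and those of mitosis were split. Of 40 DNA replication genes, 27 fell and 4 rose (median -0.16). Cdc6, which loads the replicative helicase, read 53.98, 58.5 and 54.6 CPM at 8 h and 37.1, 39.6 and 38.5 CPM at 24 h (log2 fold change -0.54 ± 0.05 SE, adjusted p = 7.87e-10). Cdc45, a part of that helicase, fell by 0.49, the primase Prim1 by 0.49 and Gins3 by 0.41. Pcna, the sliding clamp, fell by 0.10 with adjusted p = 0.029. Of 40 mitosis genes, 14 rose and 8 fell (median 0.04), but 11 rose and 12 fell with a correction for transcript length and GC content (median 0.01) and 11 rose and 9 fell without the third vehicle library at 24 h. Cdca3 (0.41), cyclin B2 (Ccnb2, 0.38), the anaphase activator Cdc20 (0.32) and the kinase Plk1 (0.30) rose, and Cdk1 (log2 fold change 0.04, adjusted p = 0.226) and the proliferation antigen Mki67 (log2 fold change -0.10, adjusted p = 0.0508) were not called. Mki67 fell without the third vehicle library at 24 h (-0.13, adjusted p = 0.014). Spag5 (-0.255), Ttk (-0.231) and Ncaph (-0.215), named after their values were seen, were among the 8 that fell.

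Promoter windows of these lists were searched for the motif of each. E2F sites, searched as TTTCCCGC or TTTGGCGC, were present in 10 of 31 replication windows and in 3.31% of all windows, and 9 of those 10 genes fell. The CHR element TTTGAA was present in 26 of 34 mitosis windows and in 14.1% of all, and 10 of those 26 genes rose and 5 fell. Cdc6 (chr11:98907901-98908200, plus strand) and Cdc20 (chr4:118437294-118437593, minus strand) are shown as examples of each, with the E2F site 138 bases and the CHR element 18 bases before the start in capitals (the E2F site as its reverse complement).
Cdc6: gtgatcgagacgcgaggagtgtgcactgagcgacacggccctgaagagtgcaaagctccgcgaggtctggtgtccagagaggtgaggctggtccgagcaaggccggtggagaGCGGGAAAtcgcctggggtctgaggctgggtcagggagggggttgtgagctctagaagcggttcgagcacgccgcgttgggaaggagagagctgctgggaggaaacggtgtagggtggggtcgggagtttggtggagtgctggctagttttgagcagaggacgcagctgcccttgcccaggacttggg
Cdc20: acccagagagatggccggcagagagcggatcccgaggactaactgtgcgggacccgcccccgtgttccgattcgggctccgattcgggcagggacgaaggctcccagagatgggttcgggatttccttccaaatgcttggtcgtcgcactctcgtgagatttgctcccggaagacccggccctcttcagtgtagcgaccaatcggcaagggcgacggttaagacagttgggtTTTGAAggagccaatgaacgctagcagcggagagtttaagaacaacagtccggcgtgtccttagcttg

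Inhibitors of the cell cycle rose beside them. Of 18 G1 cyclins and CDK inhibitors, 11 rose and 2 fell (median 0.18). Cdkn1b, which encodes p27, read 140, 146 and 154 CPM at 8 h and 192, 194 and 202 CPM at 24 h (log2 fold change 0.42, adjusted p = 1.60e-09). Cdkn2a, an abundant transcript in this line at 720 to 748 CPM at 8 h and 1090 to 1196 CPM at 24 h, rose by 0.65 and Cdkn2b by 0.61. Cdkn1a, which encodes p21, rose by 0.14, and Ccnd1, cyclin D1, by 0.20 with overlapping libraries (adjusted p = 0.0212). Of 19 tested p53 targets, 14 rose, 1 fell and 4 were not called (median 0.23). The largest rises were of the cell death gene Bbc3 (0.93), Trp53inp1 (0.76), the stress sensor Sesn1 (0.65) and Gdf15 (0.63). Cdkn1a, with its rise of 0.14, is also on this list. Activity of p53 was not tested. Of 24 genes of polyamine and nucleotide synthesis, 14 fell and 4 rose (median -0.13), with Ctps (-0.55), Cad (-0.50) and the spermidine synthase Srm (-0.51) lower and the polyamine acetylase Sat1 (0.45) higher.

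The ribosome split into its factory and its proteins. Of 37 ribosome biogenesis genes, which work in the nucleolus, 26 fell and 1 rose (median -0.20). Polr1a, the large subunit of RNA polymerase I, read 202, 200 and 191 CPM at 8 h and 147, 146 and 142 CPM at 24 h (log2 fold change -0.45 ± 0.03 SE, adjusted p = 8.69e-12), and Nop56, Utp20 and Rrp1b fell by 0.51, 0.50 and 0.52. Of 79 cytosolic ribosomal protein genes, 50 rose and 9 fell (median 0.34), for example Rps2 (0.62), Rpl39 (0.62) and Rpl38 (0.78), with Rpl10a (-0.92) lower. Many of these genes have near-identical processed copies, so their counts are uncertain. Of 52 tested nuclear genes of the respiratory chain, 44 rose and 2 fell (median 0.23), among them Ndufa6 of complex I (0.69) and Cox6a1 of complex IV (0.58). Both lists hold short transcripts. Over all genes, sorted by transcript length into 10 groups of like size, the median log2 fold change was 0.06 in the shortest group and -0.04 in the longest. With a correction for transcript length and GC content, 48 ribosomal protein genes rose and 11 fell (median 0.28) and 39 respiratory genes rose and 3 fell (median 0.19). Of 7 tested mitochondrially encoded genes, 3 rose, namely mt-Co1 (0.22), mt-Nd1 (0.19) and mt-Nd2 (0.17).

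Contractile genes mostly fell. Of 22 targets of SRF, the factor that follows actin polymerization, 16 fell and 3 rose (median -0.24). Tagln, transgelin, with 1349 of its 1988 exonic bases over antisense genes, read 219, 223 and 218 CPM at 8 h and 87.7, 87.03 and 89.5 CPM at 24 h (log2 fold change -1.32 ± 0.04 SE, adjusted p = 5.03e-19). Acta2, smooth muscle actin, read 974, 1006 and 959 CPM at 8 h and 608, 608 and 614 CPM at 24 h (log2 fold change -0.68 ± 0.04 SE, adjusted p = 1.76e-13), and calponin Cnn1 fell by 1.01. Actg1 and Actg2 also fell (-1.32 and -1.65), at 1 to 7 CPM, with actin reads that could be shared between near-identical genes. YAP and TAZ targets, which also respond to tension and density, were called higher in 9 of 18 (50%, against 25.5% of all genes) and lower in 3 (median 0.11), with Ankrd1 higher (0.53), Ccn2 lower (-0.55) and Ccn1 not called (log2 fold change -0.04, adjusted p = 0.71).

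Matrix genes moved both ways, 18 of 42 higher and 16 lower (median -0.01). Ogn, osteoglycin, a small leucine-rich proteoglycan like asporin, read 27.8, 29.8 and 31.5 CPM at 8 h and 88.9, 103 and 106 CPM at 24 h (log2 fold change 1.74 ± 0.08 SE, adjusted p = 1.98e-15). Eln, elastin, rose by 1.38 at 1.07 to 1.68 CPM at 8 h and 3.19 to 3.59 CPM at 24 h. The basement membrane collagen Col4a2 read 1409, 1411 and 1348 CPM at 8 h and 619, 613 and 606 CPM at 24 h (log2 fold change -1.18 ± 0.03 SE, adjusted p = 4.79e-19), and Tnc, tenascin C, read 426, 411 and 404 CPM at 8 h and 173, 182 and 178 CPM at 24 h (log2 fold change -1.22 ± 0.03 SE, adjusted p = 4.98e-19). Col1a1, a chain of type I collagen, fell by 0.18 and fibronectin (Fn1) by 0.28. Other fibrillar collagens, named after their values were seen, moved both ways. Col3a1 rose by 1.00 (adjusted p = 3.64e-17), Col5a2 by 0.40 (adjusted p = 7.03e-10) and Col1a2 by 0.27 (adjusted p = 5.23e-06). Col5a1 (-0.198, adjusted p = 0.00116) and Col5a3 (-0.221, adjusted p = 2.32e-05) were lower, and Col11a1 was not called (0.371, adjusted p = 0.114). Among proteases and inhibitors, 6 of 23 rose (26.1% against 25.5% of all genes) and 10 fell (43.5% against 23.7%). Timp1, which inhibits matrix metalloproteinases, read 359, 348 and 339 CPM at 8 h and 120, 114 and 118 CPM at 24 h (log2 fold change -1.57 ± 0.04 SE, adjusted p = 1.42e-20), and Mmp2 (0.56), Adamts1 (0.65) and Adamts12 (0.67) rose.

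Among growth factor genes, the BMP and TGF-beta list was mostly lower: 17 of 30 tested genes fell and 4 rose (median -0.19). Ltbp2, which binds microfibrils, read 208, 205 and 186 CPM at 8 h and 58.2, 56.6 and 50.5 CPM at 24 h (log2 fold change -1.86 ± 0.05 SE, adjusted p = 7.78e-19). The ID genes are immediate targets of BMP receptors and block differentiation factors. Id1 read 80.4, 72.3 and 70.96 CPM at 8 h and 44.1, 36.6 and 36.8 CPM at 24 h (log2 fold change -0.93 ± 0.06 SE, adjusted p = 1.76e-12), Id2 fell by 0.71 and Id4 by 1.02. The ligand Tgfb2 rose by 0.71. Of 31 tested WNT genes, 6 rose (19.4% against 25.5% of all genes) and 9 fell (29.0% against 23.7%, median -0.09). Beside Dkk2, the secreted antagonist Dkk3 rose by 0.60 and the receptor Fzd2 by 0.61, and the antagonist Sfrp1 fell by 0.97. Axin2, a common readout of the pathway, had 0 to 10 reads in the 6 libraries and was not tested. Of 17 genes of the IGF axis, 8 rose and 7 fell. Igf1 read 9.596, 8.68 and 8.93 CPM at 8 h and 15.2, 14.5 and 14.4 CPM at 24 h (log2 fold change 0.70, adjusted p = 2.02e-07), the adaptor Irs1 rose by 0.77, and Igf2 fell by 0.78 with 3694 of its 5723 exonic bases shared with other genes.

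Inflammatory genes moved both ways. Of 22 tested chemokines and inflammatory cytokines, 7 rose (31.8%) and 6 fell (27.3%), near the 25.5% and 23.7% of all genes (median 0.02). Saa3, serum amyloid A, read 519, 549 and 537 CPM at 8 h and 239, 159 and 146 CPM at 24 h (log2 fold change -1.56 ± 0.12 SE, adjusted p = 1.81e-10), and the third library at 24 h was the lowest of the 3. Lcn2, the iron-binding lipocalin, read 127, 138 and 137 CPM at 8 h and 63.7, 46.6 and 42.7 CPM at 24 h (log2 fold change -1.39 ± 0.09 SE, adjusted p = 1.52e-12), and Il1rn, the interleukin 1 receptor antagonist, fell by 1.59, with Ccl9 higher (0.79). Of 14 tested complement genes 5 fell (35.7% against 23.7% of all genes) and 3 rose (21.4% against 25.5%). Masp1 (-0.71) and Serping1 (-0.92) were lower beside C4b, and the shield Cd59a was higher (0.62). NF-kB feedback genes rose in 7 of 18 and fell in 2, led by Vcam1 (207, 240 and 250 CPM at 8 h and 432, 458 and 478 CPM at 24 h, log2 fold change 0.97, adjusted p = 3.22e-13), with Tnfaip3 (0.53), Nfkbiz (0.53) and Nfkbia (0.43).

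Of 35 interferon-stimulated genes, 7 were called higher (20% against 25.5% of all genes) and none lower (median 0.13). Ifit2 read 118, 162 and 169 CPM at 8 h and 266, 327 and 371 CPM at 24 h (log2 fold change 1.10 ± 0.14 SE, adjusted p = 2.20e-07), Ifit3 read 140, 220 and 260 CPM at 8 h and 341, 431 and 420 CPM at 24 h (log2 fold change 0.94, adjusted p = 0.000895) and Ifit1 read 342, 546 and 571 CPM at 8 h and 724, 880 and 914 CPM at 24 h (log2 fold change 0.79, adjusted p = 0.000759). In each of them the first library of either time was the lowest of its group.

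Genes of adipogenesis and lipid storage were more often higher than lower. Of 24 tested adipogenic and lipid storage genes, 15 rose and none fell (median 0.39). Pparg, the master regulator of adipogenesis, read 52.4, 46.6 and 51.9 CPM at 8 h and 78.8, 76.2 and 80.6 CPM at 24 h (log2 fold change 0.64 ± 0.05 SE, adjusted p = 2.14e-11), and its partner Cebpa read 37.2, 35.98 and 36.8 CPM at 8 h and 50.7, 50.1 and 46.96 CPM at 24 h (log2 fold change 0.43 ± 0.06 SE, adjusted p = 1.40e-06). Fabp4, a fatty acid carrier, read 94.1, 91.2 and 91.8 CPM at 8 h and 149, 158 and 173 CPM at 24 h (log2 fold change 0.79, adjusted p = 4.09e-13). The lipases Pnpla2 (28.6, 29.9 and 28.3 CPM at 8 h and 61.4, 62.9 and 60 CPM at 24 h, log2 fold change 1.09, adjusted p = 1.18e-13) and Lipe (0.87) and the lipid droplet protein Plin2 (0.72) rose. Of the 4 mature adipocyte markers tested only Fabp4 rose, while the others, named after their values were seen, were not called: Adipoq (0.44, adjusted p = 0.317), Plin1 (-0.48, adjusted p = 0.185) and Cidec (0.35, adjusted p = 0.166). The lipoprotein lipase gene Lpl was not called either (0.03, adjusted p = 0.601). Of 12 tested brown fat regulators, 2 rose (16.7% against 25.5% of all genes) and 1 fell (8.33% against 23.7%). Ucp1, with no read in these 6 libraries, could not be called. Eva1a, Elovl3 and Adrb1 had means of only 0.0106, 0.0893 and 0.315 CPM. Ppargc1a, the coactivator of mitochondrial and thermogenic genes, read 4.77, 4.54 and 4.25 CPM at 8 h and 9.14, 8.71 and 9.04 CPM at 24 h (log2 fold change 0.99 ± 0.12 SE, adjusted p = 1.12e-07), Esrra rose by 0.35, and Prdm16, the brown identity factor, fell by 0.54. Of 18 tested preadipocyte and stromal genes, 8 rose and 1 fell (median 0.17), with Igf1, Cd34 (0.66), Gas6 (0.57) and the growth arrest gene Gas1 (0.54) higher.

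Genes of degradation and detoxification were more often higher than lower. Of 37 tested lysosome genes 21 rose and 5 fell (median 0.12), for example the lipase Lipa (0.68), with their factor Tfeb just outside the threshold (log2 fold change 0.22, adjusted p = 0.0528). Of 26 tested autophagy genes 15 rose and 2 fell (median 0.15). Sqstm1, the autophagy receptor p62, read 389, 380 and 376 CPM at 8 h and 664, 700 and 676 CPM at 24 h (log2 fold change 0.83 ± 0.03 SE, adjusted p = 2.31e-16), and Gabarapl1 rose by 0.69. Of 24 tested NRF2 targets 15 rose and 2 fell (median 0.12), with Ephx1 (0.97), Gsta4 (0.93) and Nqo1 (0.70) higher. Of 32 proteasome genes 15 rose and 2 fell (median 0.09).

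Genes of protein folding were more often lower. Of 24 genes of the endoplasmic reticulum chaperones and unfolded protein response 12 fell and 5 rose (median -0.12), with the chaperone Hspa5 at 1488, 1437 and 1419 CPM at 8 h and 1036, 1042 and 1070 CPM at 24 h (log2 fold change -0.46 ± 0.04 SE, adjusted p = 4.55e-10) and Creld2 (-0.53), Xbp1 (-0.53) and Hyou1 (-0.49) lower. Of 16 heat shock genes 8 fell and 3 rose, with Hspa8 (-0.37) and Hsph1 (-0.35) lower and Hspb8 (0.44) higher. Of 38 ATF4 and amino acid response genes, 14 rose (36.8% against 25.5% of all genes) and 11 fell (28.9% against 23.7%, median 0.02). Atf4 itself rose by 0.49 and its target Nupr1 by 0.88. Of 26 immediate early genes 13 rose and 2 fell (median 0.19). Nr4a1, an orphan receptor induced by many stimuli, read 9.31, 8.17 and 7.05 CPM at 8 h and 29.1, 29.1 and 30.3 CPM at 24 h (log2 fold change 1.85 ± 0.09 SE, adjusted p = 1.72e-14), Egr1 rose by 0.63, and Fos (log2 fold change -0.001, adjusted p = 0.998) and Myc (log2 fold change 0.07, adjusted p = 0.346) were not called.

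The 4 h vehicle libraries place these levels in time. Their contrasts share libraries with the one from 8 h to 24 h, so the values stand side by side and are not tested against each other. The clock list had a median log2 difference of -0.26 from 4 h to 8 h and 0.45 from 4 h to 24 h. Dbp averaged 6.13 CPM at 4 h, 4.96 CPM at 8 h and 24.8 CPM at 24 h, and Per2 averaged 15.1, 7.48 and 12.8 CPM. Both genes were lowest at 8 h. Cholesterol genes had a median of -0.07 from 4 h to 8 h and 1.08 from 4 h to 24 h. Id1 averaged 155, 74.6 and 39.1 CPM, lower at each later time. Mgp averaged 553, 441 and 53.4 CPM. Mitosis genes had a median above 0 at both later times (0.53 from 4 h to 8 h and 0.52 from 4 h to 24 h). DNA replication genes had a median of 0.224 from 4 h to 8 h and 0.007 from 4 h to 24 h. Their median at 24 h was thus near the 4 h level. ATF4 and amino acid response genes had medians of -0.669 from 4 h to 8 h and -0.695 from 4 h to 24 h. Atf4 itself averaged 498 CPM at 4 h, 321 CPM at 8 h and 452 CPM at 24 h.

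FGF6-treated cells at the same times share no library with the vehicle groups, so the difference between both changes could be tested. From 8 h to 24 h, 4686 genes rose (31.1%) and 4700 fell (31.2%) in FGF6 cells. The difference of both changes, tested in the same edgeR fit, passed for 3385 genes with the vehicle change above the FGF6 change (22.5%) and 3412 below it (22.6%). With the correction for transcript length and GC content the split was 2551 and 4703. Of the 379 genes at least 2-fold higher in vehicle cells, 143 also rose in FGF6 cells, 54 fell and 182 were not called. Of the 296 at least 2-fold lower, 177 also fell, 11 rose and 108 were not called. Opposite calls with a called difference were found for 1225 genes, 736 higher in vehicle and lower in FGF6 cells and 489 the reverse.

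Most clock and sterol genes rose in both. Of the 19 clock genes, 11 rose and 4 fell in FGF6 cells (median 0.43 against 0.78 in vehicle cells), and the difference passed for 9 genes with the vehicle change above and 4 below. Dbp rose by 2.32 in vehicle cells and by 1.44 in FGF6 cells (difference 0.87, adjusted p = 0.000435). Nfil3 fell in vehicle cells and was at 17.7 and 19.2 CPM in FGF6 cells (0.11). Of the 25 cholesterol genes 24 rose in FGF6 cells (median 1.13), with the vehicle change above in 8 and below in 7.

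Other lists parted. All 40 mitosis genes rose in FGF6 cells (median 0.76) where the vehicle median was 0.04, and the difference passed for all 40. Hypoxia targets rose more in FGF6 cells (median 1.18), with the vehicle change below in 16 of 20. Car9 rose by 1.92 in vehicle cells and 3.68 in FGF6 cells (difference -1.75, adjusted p = 9.65e-06). Collagens and matrix proteins fell in 36 of 42 in FGF6 cells (median -1.36), and interferon-stimulated genes in 34 of 35 (median -2.93), with the vehicle change above in 35 of 42 and 35 of 35. Pparg rose in vehicle cells and was not called in FGF6 cells (-0.05, difference 0.69, adjusted p = 2.32e-08).

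**Figure D5:**
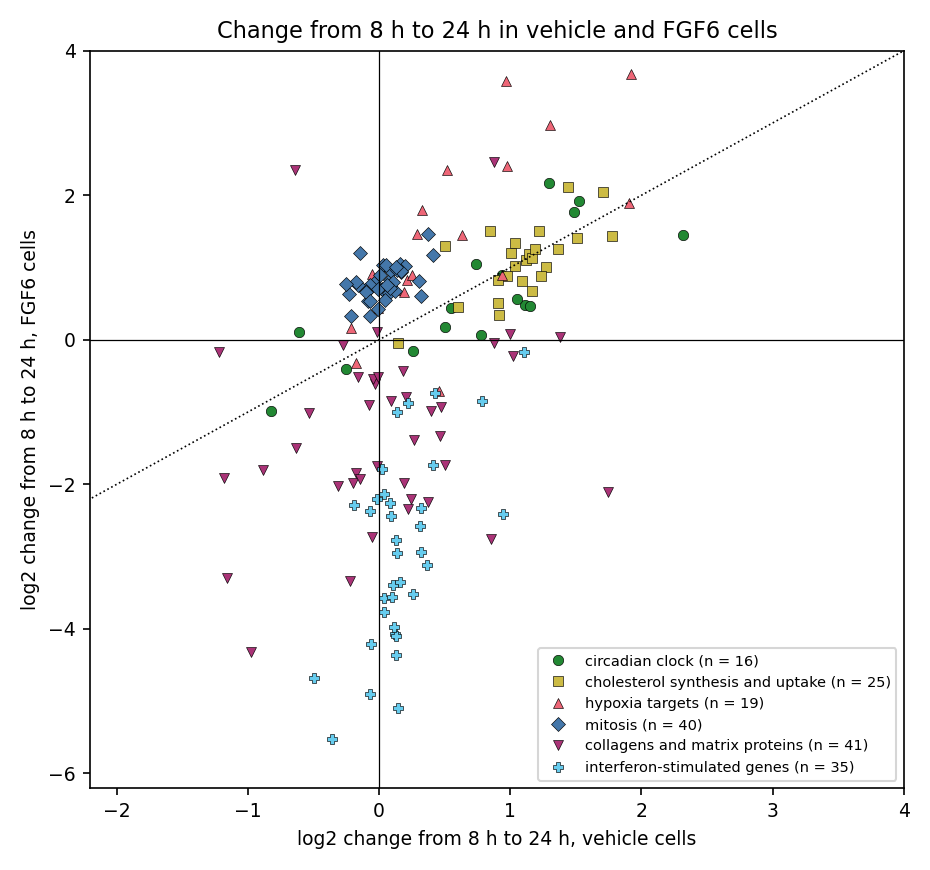
Log2 change from 8 h to 24 h in vehicle cells (horizontal axis) and in FGF6 cells (vertical axis) for members of 6 lists at a mean of 2 CPM or more in vehicle cells, 1 point per gene, with a dotted line of equal change. Clock and cholesterol genes lie on both sides of the line, and nearly all cholesterol genes lie above 0 on both axes. Mitosis genes lie above 0 on the vertical axis with vehicle changes near 0. Interferon-stimulated genes mostly lie far below 0 on that axis, with vehicle changes mostly near 0.

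The 8 genes with the largest difference between both changes were Apod, Egfl6, Lbp, Cxcl9, Ggt5, Ifi27l2a, Rerg and Saa3. Apod, a lipid-binding apolipoprotein, read 22.8, 19.9 and 24.9 CPM at 8 h and 45.1, 51.2 and 40.6 CPM at 24 h in vehicle cells (log2 fold change 1.03 ± 0.19 SE, adjusted p = 6.29e-05) and averaged 16.9 and 0.364 CPM in FGF6 cells. Ifi27l2a, an interferon-induced gene, read 15.4, 12.7 and 13.5 CPM at 8 h and 43.4, 33.5 and 29.1 CPM at 24 h (log2 fold change 1.35 ± 0.16 SE, adjusted p = 1.45e-07), with FGF6 means of 8.597 and 0.545 CPM. Cxcl9, an interferon-induced chemokine, rose by 1.17 and Rerg, a small GTPase-like protein, by 1.37. Saa3 fell in both, to 182 CPM in vehicle cells and 2.77 CPM in FGF6 cells. Lbp, which binds bacterial lipopolysaccharide, did not pass in vehicle cells (log2 fold change 0.06, adjusted p = 0.754). In FGF6 cells at 24 h, Egfl6, Lbp and Ggt5 were at or under 3 counts in every library, so the size of their fitted difference depends on the prior count and is no bound.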

How the data were processed

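Total RNA of 18 samples was sequenced, of which 6 form the comparison. Per the labels, the authors aligned reads with STAR to GRCm38.p4 and deposited raw read counts per gene made with featureCounts of Subread. Tool versions, the annotation release and the strand setting are not given in the sources used here, so reads of a gene and its antisense partner may not be separable. Of the gene identifiers, 98.5% were found in GENCODE M21, from which names and coordinates were taken. Here, counts of all 18 libraries were filtered with filterByExpr, scaled by TMM and fitted with edgeR 4.0.16 (R 4.3.3) by quasi-likelihood, with the contrast of vehicle at 24 h against 8 h and its difference from the same contrast in FGF6 cells. Calls had a Benjamini-Hochberg adjusted p under 0.05 over all 15071 genes tested. Levels are CPM over scaled totals, and differences are log2 fold changes. Standard errors were derived from the fold change and the F statistic. The study itself used limma-voom at an adjusted p under 0.25, tried here as an alternative with limma 3.58.1, beside DESeq2 1.42.0, other scalings and filters, and leaving out each library. Intervals and floors cover counting error only. On simulated data, 50 genes were changed at each size, with the same spread for every gene. Recovered were 49 of 50 genes raised 1.5-fold, 50 of 50 raised 2-fold, 48 of 50 lowered to 0.667 and 50 of 50 lowered to 0.5. There were 10 false calls. The simulation had far fewer changed genes than were called here and no library rich in ribosomal RNA. It therefore checks the fit and does not vouch for the calls above.

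Named genes were the 10 largest increases and decreases averaging 2 CPM or more and not overlapping between groups, all clock genes, up to 4 called members of each other list with the largest change plus members at fixed pathway steps, and the 8 largest differences from FGF6 cells. The comparison, the gene lists and the tests were chosen with earlier results of these data known. Where a gene had several RefSeq promoter windows, the one with the lowest start that held the motif was printed. Some members that this rule names are not reported here, although list counts, medians and sums include them. No set test was run.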

Additional observations from a re-analysis of the deposited data

Results flagged for a closer look

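For 10 named genes the change from 8 h to 24 h differed between vehicle and FGF6 cells, by the interaction in edgeR's quasi-likelihood fit, and stood out by size or by opposite calls. The log2 difference, vehicle minus FGF6, was 6.56 for Apod, 6.51 for Egfl6, 5.88 for Lbp, 5.55 for Cxcl9, 5.42 for Ggt5, 5.34 for Ifi27l2a, 5.34 for Rerg and 5.25 for Saa3. It was 3.98 for Aspn and 3.85 for Ogn, which rose at least 2-fold in vehicle cells and fell at least 2-fold in FGF6 cells. Aspn was low in FGF6 cells, with means of 0.716 CPM at 8 h and 0.266 CPM at 24 h. Its first FGF6 library at 24 h stood at 0.109 CPM, the level of 3 counts. Egfl6, Lbp and Ggt5 were at or under 3 counts in every FGF6 library at 24 h, so their values depend on the prior count.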

How the results depend on the processing

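Counts of called genes mostly stayed within 1.5 times. Requiring at least 2-fold change reduced 3839 and 3575 genes to 379 and 296, and at least 10 counts in every library reduced these to 232 and 129. Leaving out each library gave 3469 to 3708 genes higher, 3158 to 3335 lower, 353 to 407 at least 2-fold higher, 275 to 328 at least 2-fold lower, 3159 to 3314 with the vehicle change above the FGF6 change and 3128 to 3308 below. Scaling by library size only gave 2844 higher and 4976 lower (2903 and 4186 for the difference), upper-quartile factors 3394 and 4160. Alternatives chosen after seeing the data gave 3676 and 3792 without any ribosomal RNA genes, and 3661 and 3934 with a length and GC offset (2551 and 4703 for the difference). Correlations of same-numbered deviations were 0.0164 to 0.0378, and those of unlike numbers were -0.0216 to 0.00373. Each sample correlated best with its own number, so weak pairing by replicate number is possible. A replicate block gave 3877 and 3602 genes, 378 and 297 at 2-fold, and 3408 and 3447 for the difference. Of 4247 values of named genes under alternatives, 4200 kept direction and side of the threshold, 17 lost the call, 16 gained it and 14 turned sign, none of them called. Those were Slc2a1 (-0.026), Cdk1 (-0.034), Myc (-0.009) and Lbp (-0.012) by library size only, Cdk1 (-0.016) with the length and GC offset, Fos (0.008) by DESeq2, and, leaving out single libraries, Fos (all leave-outs -0.132 to 0.108), Ccn1 (-0.162 to 0.022) and Lbp (-0.013 to 0.103). The cause was not tested. Genes under 3 counts in a library (0.0905 to 0.126 CPM) could not be compared at this depth.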
